A study of Mus musculus with 24 samples.

Results

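The genes described here are the D-box output factors of the circadian clock, Dbp, Tef, Hlf and Nfil3, together with the clock-controlled protease gene Usp2. They were chosen by name, as probe sets whose only annotated gene was 1 of these 5, and the probe set with the highest mean was to stand for each gene. Each of the 5 genes had 1 such probe set, so that 5 of 23410 probe sets with an annotated gene, and 5 of 19938 genes, are described. The probe sets are 10553092 for Dbp, 10425601 for Tef, 10389786 for Hlf, 10409278 for Nfil3 and 10584634 for Usp2. The measurements were made in micropunches of the ventral tegmental area (VTA), the midbrain nucleus that holds dopamine neurons of the reward system. The 24 wild-type male C57BL/6N mice were 10 to 12 weeks old and were kept with chow and water freely available in a cycle of 12 h light and 12 h dark. Groups of 4 mice were sampled every 4 h from Zeitgeber time (ZT) 0, lights on, to ZT20, with lights off at ZT12 and 1 array per mouse. All mice belonged to the same strain and sex and none carried a mutation or received a treatment, so time of day was the only labelled difference between the groups. Punches hold every cell type of the dissected area, and in such bulk samples fewer cells of a type and less RNA per cell cannot be told apart.

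The molecular clock turns over through transcription factors that bind different elements in DNA. CLOCK and BMAL1 activate genes through E-boxes, among them the genes of their own repressors. The PAR bZIP proteins DBP, TEF and HLF are made downstream of that loop and activate genes that carry a D-box. NFIL3, also called E4BP4, binds the same element as a repressor, and its gene is in turn repressed by REV-ERB proteins. USP2 removes ubiquitin from proteins, clock proteins such as PER1, CRY1 and BMAL1 among them. In brain and liver the PAR bZIP factors are known as regulators of enzymes of vitamin B6, heme and drug metabolism, and mice that lack all of them are prone to seizures.

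The stretches just upstream of the annotated starts were read for these elements, because the 4 factors and Usp2 are commonly described as genes under E-box, D-box or REV-ERB control. RefSeq promoters (GRCm38.p6) were matched by symbol for 5 of 5 genes, in 6 windows of 250 bases before a start, with 2 starts for Tef. The sequences below run 5′ to 3′ on the strand of the gene, and capitals mark a match on either strand. Dbp is shown as the gene with the clearest rhythm, and the others because they hold a match.
Dbp, chr7:45704997-45705246, plus strand: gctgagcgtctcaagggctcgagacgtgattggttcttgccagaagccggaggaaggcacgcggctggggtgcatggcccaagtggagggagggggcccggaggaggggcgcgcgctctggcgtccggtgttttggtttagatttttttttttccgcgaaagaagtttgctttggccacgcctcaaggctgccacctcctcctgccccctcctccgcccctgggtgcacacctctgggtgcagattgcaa
Tef, upstream start, chr15:81802423-81802672, plus strand: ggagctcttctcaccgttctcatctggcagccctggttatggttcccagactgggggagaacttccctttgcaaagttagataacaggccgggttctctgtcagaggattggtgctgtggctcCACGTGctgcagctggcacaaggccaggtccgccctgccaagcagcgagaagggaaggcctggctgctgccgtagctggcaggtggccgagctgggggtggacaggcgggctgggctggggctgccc
Tef, downstream start, chr15:81811164-81811413, plus strand: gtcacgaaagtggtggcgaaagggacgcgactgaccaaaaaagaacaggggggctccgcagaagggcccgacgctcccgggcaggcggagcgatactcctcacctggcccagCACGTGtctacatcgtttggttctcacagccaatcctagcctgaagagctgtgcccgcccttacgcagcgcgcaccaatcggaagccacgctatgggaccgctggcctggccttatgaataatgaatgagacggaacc
Hlf, chr11:90390918-90391167, minus strand: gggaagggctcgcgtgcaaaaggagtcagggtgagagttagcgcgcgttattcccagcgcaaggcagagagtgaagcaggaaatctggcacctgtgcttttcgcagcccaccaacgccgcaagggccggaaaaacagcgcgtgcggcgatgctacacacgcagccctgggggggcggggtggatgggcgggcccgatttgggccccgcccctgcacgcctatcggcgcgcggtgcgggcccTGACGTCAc
Nfil3, chr13:52981040-52981289, minus strand: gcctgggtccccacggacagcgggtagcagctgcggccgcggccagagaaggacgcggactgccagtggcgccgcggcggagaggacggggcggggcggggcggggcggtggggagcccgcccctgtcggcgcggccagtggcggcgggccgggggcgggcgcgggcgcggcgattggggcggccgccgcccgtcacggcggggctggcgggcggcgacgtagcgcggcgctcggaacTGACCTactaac

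The E-box CACGTG was found in both Tef windows, at bases 127 to 122 before the upstream start and at bases 138 to 133 before the downstream start. It was present in 6.02% of all 32851 mouse windows of this length. The cAMP response element TGACGTCA ended 2 bases before the Hlf start and was held by 1.55% of windows. The hexamer AGGTCA, the core of the element bound by REV-ERB and ROR proteins, lay on the opposite strand at bases 12 to 7 before the Nfil3 start and was held by 14.0% of windows. The E-box variant CACGTT (3.85% of windows) and the D-box, searched as TTATGTAA and TTACGTAA (0.931% of windows), were in 0 of the 6 windows. None of the 5 motifs was in the windows of Dbp and Usp2. Such a match is a description of letters in a short window, and elements in introns or farther upstream were not searched.

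Values are log2 intensities after robust multi-array averaging (RMA), so a difference of 1 is a doubling. A level depends on the probes of its own gene, so levels are compared over time within a gene and not between genes. The probe sets of the 5 genes had means from 6.92 to 7.97, all above the median of all probe sets, 6.76. Array medians lay between 6.71 and 6.79 and no pair of arrays was identical. The array of ZT0 replicate 4 stood apart, with a median correlation of 0.970 with the other arrays against at least 0.988 for every other array. The main values that it moved are also given without it, in part as settings chosen after the data were seen. Of the 10 markers of dopamine neurons, Th (tyrosine hydroxylase) read 7.43 to 8.21 and Slc6a3 (the dopamine transporter) 8.01 to 9.18 over all arrays. The medians of En1 (6.71) and Foxa1 (5.93) lay below the median of all probe sets, and those of the other dopamine neuron markers lay above it. By limma, none of the markers of dopamine or other neurons, glia, vessels, blood or neighbouring nuclei was called at an adjusted p under 0.05. In the rhythm test 4 of them passed an unadjusted p under 0.05, as did 8.91% of all probe sets. These were 2 of 5 oligodendrocyte, 1 of 5 endothelial and 1 of 5 neighbouring-nuclei markers. None of the 10 dopamine neuron, 4 GABA and glutamate neuron, 6 astrocyte, 6 microglial and 1 blood markers passed it.

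Dbp had the largest time-of-day difference of the 5 genes. At ZT0 the 4 mice read 6.74, 7.03, 6.96 and 6.85, and at ZT4 they read 7.12, 6.92, 7.08 and 6.82. At ZT8 the values were 7.22, 7.15, 7.26 and 7.13, and at ZT12 they were 7.27, 7.35, 7.42 and 7.31. At ZT16 the mice read 7.21, 7.04, 7.10 and 7.37, and at ZT20 they read 6.97, 6.93, 7.14 and 7.09. All 4 mice at lights off were thus above all 4 mice at lights on, as in 531 of 23410 probe sets (2.27%). The means rose from 6.89 ± 0.13 (SD, n = 4) at ZT0 to 7.34 ± 0.06 at ZT12, a difference of 0.44 on the log2 scale or 1.36-fold. In the order of the levels, ZT12 was followed by ZT8, ZT16, ZT20, ZT4 and ZT0, and apart from ZT12 and ZT8 the ranges of all neighbours overlapped. How many probe sets separate ZT12 from ZT8 was not counted, and that step of Dbp was not called (limma adjusted p = 0.9999).

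A 24-h cosine was fitted to every probe set with limma, to ask whether mRNA levels followed the day. The curve of Dbp had a peak-to-trough difference of 0.41 ± 0.06 (SE) on the log2 scale, a fold of 1.33 with a 95% interval of 1.22 to 1.46, and a peak at ZT12.2 ± 0.60 h. Its p was the fifth smallest of all probe sets (limma moderated F-test, adjusted p = 0.0137). Dbp was the only gene of the 5 called at an adjusted p under 0.05, a level reached by 7 of 23410 probe sets (0.0299%). The curve accounted for 68.8% of the variation of Dbp among the 24 mice, and its peak-to-trough difference was at percentile 99.6 of all probe sets. The call was not kept when ZT0 replicate 1 (adjusted p = 0.0615) or ZT12 replicate 3 (adjusted p = 0.0634) was left out.

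**Figure D1:**
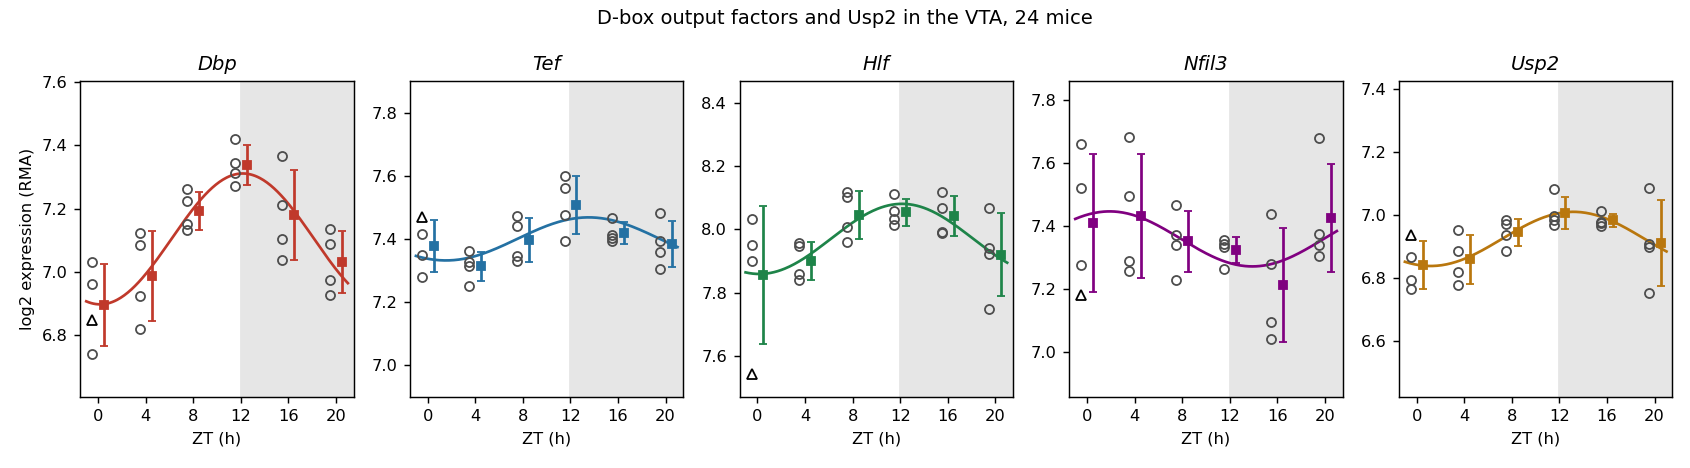
Log2 RMA expression of each gene against Zeitgeber time. Open circles are single mice (a triangle marks ZT0 replicate 4), filled squares with bars are means with SD of 4 mice, curves are fitted 24-h cosines and shading marks the dark phase. Points and means are set slightly left and right of their time, and each panel spans 1 log2 unit. Dbp ranges from 6.74 to 7.42, and the lowest Hlf value, 7.54, is the triangle at ZT0.

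Hlf, which encodes another PAR bZIP activator, had its higher means from ZT8 to ZT16 and its lower means from ZT20 to ZT4. Its values were 8.03, 7.90, 7.95 and 7.54 at ZT0, and 7.96, 7.95, 7.86 and 7.84 at ZT4. The mice of ZT8 read 8.01, 8.12, 8.10 and 7.96, and those of ZT12 read 8.02, 8.11, 8.06 and 8.03. At ZT16 the values were 7.99, 7.99, 8.12 and 8.07, and at ZT20 they were 7.75, 7.94, 8.07 and 7.92. The means of ZT8, ZT12 and ZT16 were close to each other at 8.05 ± 0.08, 8.05 ± 0.04 and 8.04 ± 0.06, and the ranges of all neighbours in the order overlapped. The lowest mean was 7.86 ± 0.22 at ZT0, where a single mouse, replicate 4, lay far below the others. Without that mouse the ZT0 mean was 7.96 ± 0.07 (n = 3), above ZT20 and ZT4, and ZT4 was then the lowest time point. The fitted curve had a peak-to-trough difference of 0.22 ± 0.07, a fold of 1.17 (95% interval 1.06 to 1.28) and a peak at ZT12.2 ± 1.14 h. It passed an unadjusted p under 0.05 but not the adjusted threshold (limma adjusted p = 0.416). Without ZT0 replicate 4 the difference was 0.16 and still passed unadjusted (limma adjusted p = 0.508), and the peak stayed at ZT12.2.

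The array of ZT0 replicate 4 also had the lowest mean of the microglial markers, 6.62 against 6.73 to 6.89 in the other ZT0 mice, and of the endothelial markers, 7.17 against 7.31 to 7.35. Its oligodendrocyte markers were higher, at 9.44 against 9.25 to 9.38. Across all 24 mice, after the time-point means were removed, Hlf correlated with the endothelial markers at r = 0.58 and with the microglial markers at r = 0.51. These were 0.33 and 0.12 without that array. The correlation of Hlf with markers of neighbouring nuclei was −0.57 with and −0.50 without the array. Of these markers only Isl1 (median 6.92) lay above the median of all probe sets, 6.76, so their mean is a weak measure of neighbouring tissue. Without the array, r was 0.46 for astrocytes, 0.40 for GABA and glutamate neurons and 0.37 for oligodendrocytes. It was 0.02 for dopamine neurons and −0.40 for blood. The part of tissue composition in the Hlf values was not tested.

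Tef, the third PAR bZIP gene and the gene with an E-box in both windows, had the smallest fitted curve. Its mice read 7.42, 7.28, 7.35 and 7.47 at ZT0, and 7.36, 7.25, 7.31 and 7.33 at ZT4. The values were 7.44, 7.33, 7.47 and 7.35 at ZT8, and 7.48, 7.56, 7.39 and 7.60 at ZT12. At ZT16 they were 7.39, 7.41, 7.40 and 7.47, and at ZT20 they were 7.48, 7.36, 7.31 and 7.39. The ranges of all neighbours in the order of the means overlapped. The means ran from 7.31 ± 0.05 at ZT4 to 7.51 ± 0.09 at ZT12, a difference of 0.19 or 1.14-fold, in the order ZT12, ZT16, ZT8, ZT20, ZT0 and ZT4. The curve had a peak-to-trough difference of 0.14 ± 0.05 and a fold of 1.10 (95% interval 1.02 to 1.19), with a peak at ZT13.5 ± 1.49 h. It narrowly missed an unadjusted p under 0.05 (limma adjusted p = 0.562), and passed it without ZT0 replicate 4, where the difference was 0.16 (limma adjusted p = 0.487).

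Usp2, which encodes the deubiquitinating protease, differed little between time points but also varied little between mice. The values were 6.87, 6.79, 6.77 and 6.94 at ZT0, and 6.82, 6.95, 6.89 and 6.78 at ZT4. At ZT8 the mice read 6.89, 6.99, 6.97 and 6.94, and at ZT12 they read 6.97, 7.00, 6.99 and 7.08. At ZT16 the values were 6.98, 6.98, 7.01 and 6.96, and at ZT20 they were 6.75, 6.91, 6.90 and 7.08. The 4 mice of ZT16 differed least, with an SD of 0.02 around 6.98, whereas the mice of ZT20 held both the lowest and the highest value of the day. The means ran from 6.84 ± 0.08 at ZT0 to 7.01 ± 0.05 at ZT12, a difference of 0.17 or 1.12-fold, and neighbours in the order ZT12, ZT16, ZT8, ZT20, ZT4 and ZT0 overlapped. The fitted difference was 0.17 ± 0.05 with a fold of 1.13 (95% interval 1.05 to 1.21) and a peak at ZT13.2 ± 1.17 h. It passed an unadjusted p under 0.05 but not the adjusted threshold (limma adjusted p = 0.427).

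Nfil3, the gene of the D-box repressor, had higher means around lights on than around lights off, and varied most between mice of a time point. At ZT0 the values were 7.66, 7.52, 7.27 and 7.18, and at ZT4 they were 7.68, 7.26, 7.49 and 7.29. The mice read 7.34, 7.23, 7.37 and 7.47 at ZT8, and 7.36, 7.33, 7.34 and 7.26 at ZT12. At ZT16 they read 7.04, 7.28, 7.44 and 7.10, and at ZT20 they read 7.68, 7.30, 7.34 and 7.37. The 3 highest values came from single mice at ZT0, ZT4 and ZT20, and the 2 lowest were both at ZT16. The highest mean was 7.43 ± 0.20 at ZT4 and the lowest was 7.21 ± 0.18 at ZT16, in the order ZT4, ZT20, ZT0, ZT8, ZT12 and ZT16, and the ranges of all neighbours overlapped. Without ZT0 replicate 4 the ZT0 mean was 7.48 ± 0.19 (n = 3) and the highest of the day. The fitted difference was 0.17 ± 0.09, and the 95% interval of its fold, 0.998 to 1.28, included no change (limma adjusted p = 0.682). The fitted peak was at ZT1.89 ± 1.91 h. Without ZT0 replicate 4 the difference was 0.22 and likewise did not pass an unadjusted p under 0.05 (limma adjusted p = 0.549).

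Over the 5 genes, Dbp, Hlf and Usp2 passed an unadjusted p under 0.05 for rhythm, as did 2085 of 23410 probe sets (8.91%). The median peak-to-trough difference was 0.17 for the 5 genes and 0.10 for all probe sets. The fitted peaks of Dbp, Hlf, Usp2 and Tef lay between ZT12.2 and ZT13.5, and that of Nfil3 close to the start of the light phase. Peak times of 2 genes were compared by the difference of their curves, with the covariance of their residuals on the same arrays. Dbp and Hlf differed by 0.0095 h, with a 95% interval of −2.42 to 2.44 h. The interval of the difference between Dbp and Usp2 was −3.71 to 1.72 h, and the difference of Dbp from Tef was −1.36 h (interval −4.66 to 1.95 h). Shifts of a few hours between the activators and Usp2 could thus not be resolved. The interval between Dbp and Nfil3 was 6.17 to 14.4 h around a difference of 10.3 h. For Nfil3 against Usp2 the interval was −15.2 to −7.33 h around −11.3 h. Since the curve of Nfil3 did not pass the test, its peak is a fitted value only. The amplitude of Dbp exceeded that of Tef by 0.28 (interval 0.10 to 0.45), of Usp2 by 0.24 (0.07 to 0.42), of Nfil3 by 0.24 (0.02 to 0.46) and of Hlf by 0.19 (0.02 to 0.36) on the log2 scale. For the other 6 pairs the interval of the difference in amplitude included 0. Without ZT0 replicate 4 the difference between Dbp and Nfil3 was 0.19 and its interval, −0.033 to 0.41, included 0, while the intervals of Dbp against Tef, Hlf and Usp2 still lay above 0.

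**Figure D2:**
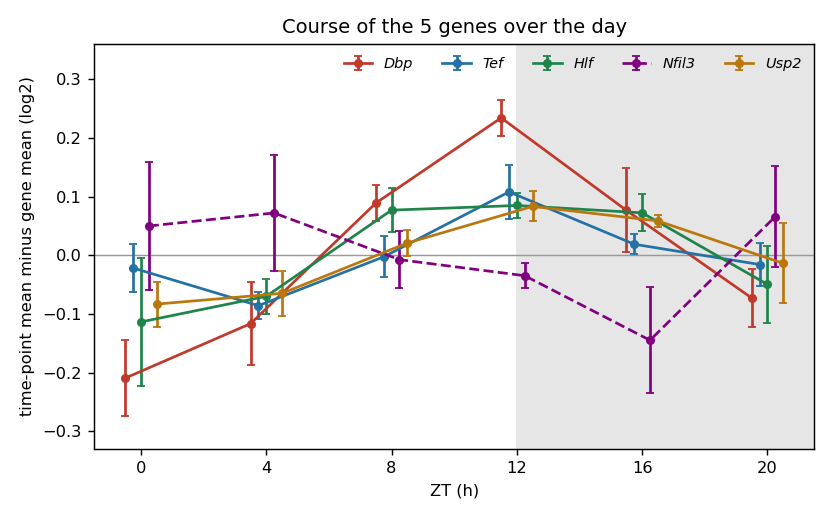
Time-point means of the 5 genes minus the mean of each gene over all mice (log2), against Zeitgeber time, with the standard error of 4 mice as bars and the dark phase shaded. Points are shifted sideways to keep them apart. Dbp, Tef, Hlf and Usp2 have their highest mean at ZT12, and Nfil3 (dashed) has its lowest at ZT16.

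**Figure D3:**
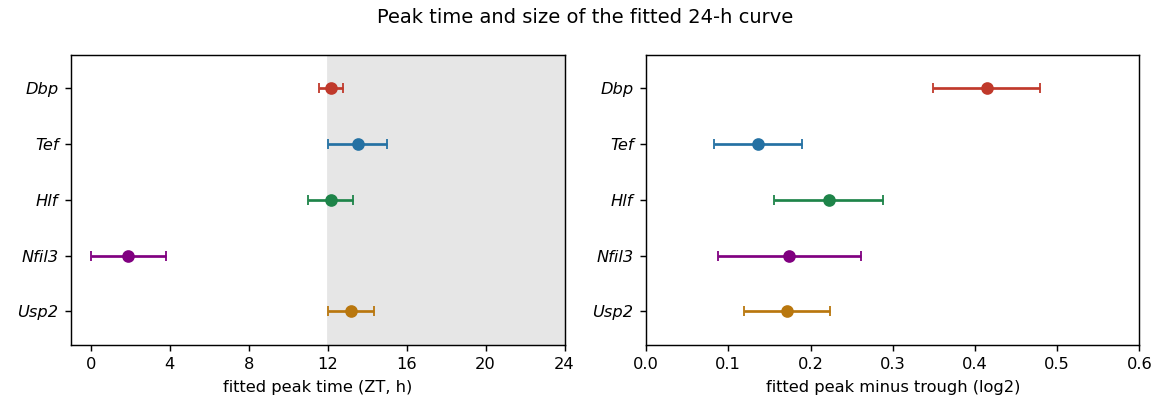
Fitted peak time (left, ZT in h, dark phase shaded) and peak-to-trough difference (right, log2) of the 24-h curve of each gene, with standard errors as bars. The peaks of Dbp, Tef, Hlf and Usp2 lie between ZT12.2 and ZT13.5 and that of Nfil3 at ZT1.89, and the difference of Dbp, 0.41, is the largest.

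The early dark (ZT12 and ZT16) was then compared with the early light (ZT0 and ZT4), which needs no curve, with 8 mice on each side. Dbp ranged from 6.74 to 7.12 with a median of 6.94 in the early light, and from 7.04 to 7.42 with a median of 7.29 in the early dark. Of the 8 mice in the early dark, 6 were above every mouse of the early light. The difference of 0.32 ± 0.06 (SE; 95% interval 0.20 to 0.44) was called by limma (adjusted p = 0.0328), as were 7 of 23410 probe sets that were higher in the early dark (0.0299%). The call was not kept when any of 12 of the 24 arrays was left out, namely the 4 of ZT12, replicates 1, 3 and 4 of ZT16, replicates 1 and 3 of ZT0, replicates 2 and 4 of ZT4, and replicate 1 of ZT8. Without any of these 12 the difference was between 0.29 and 0.33, with adjusted p from 0.0513 to 0.109. Usp2 was separated in all 8 mice, at 6.77 to 6.95 in the early light and 6.96 to 7.08 in the early dark, although its difference was 0.15 ± 0.05 (limma adjusted p = 0.304). Such a separation upward was found in 12 of 23410 probe sets (0.0513%).

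Hlf had a median of 7.92 (7.54 to 8.03) in the early light and 8.05 (7.99 to 8.12) in the early dark. Its difference was 0.17 ± 0.06 (limma adjusted p = 0.317), and 0.12 without ZT0 replicate 4 (adjusted p = 0.395). Tef had a median of 7.34 (7.25 to 7.47) in the early light and 7.44 (7.39 to 7.60) in the early dark, with a difference of 0.12 ± 0.05 (limma adjusted p = 0.384). For Hlf 4 and for Tef 3 of the 8 mice in the early dark were above every mouse in the early light. Nfil3 had a median of 7.39 (7.18 to 7.68) in the early light and 7.31 (7.04 to 7.44) in the early dark, and the groups overlapped widely. Its difference was −0.15 ± 0.08, with a 95% interval from −0.31 to 0.0074 (limma adjusted p = 0.518). Leaving out ZT0 replicate 4 gave −0.19, which passed an unadjusted p under 0.05 (limma adjusted p = 0.361). At an unadjusted p under 0.05, Dbp, Tef, Hlf and Usp2 were higher in the early dark, as were 1293 of 23410 probe sets (5.52%).

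**Figure D4:**
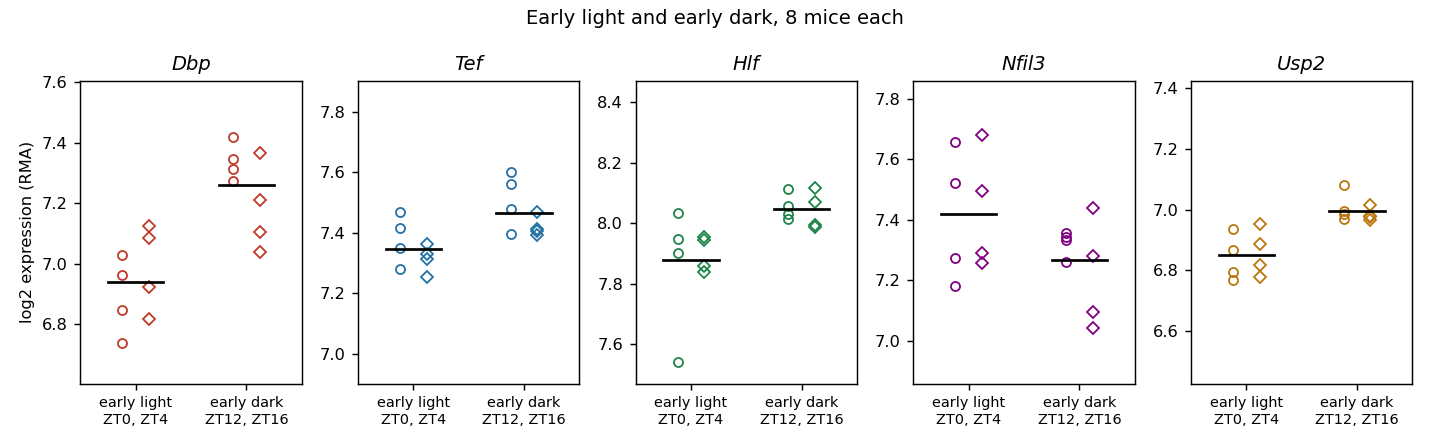
Log2 RMA expression of each mouse in the early light (circles ZT0, diamonds ZT4) and the early dark (circles ZT12, diamonds ZT16), with black bars at the means of 8 mice. Each panel spans 1 log2 unit. The 8 Usp2 values of the early dark, 6.96 to 7.08, are all above the 8 of the early light, while the groups overlap for the other genes.

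Lights off was also set against lights on. ZT12 was above ZT0 in all 4 against all 4 mice for Dbp and Usp2, a separation found in 531 of 23410 probe sets (2.27%). The lowest Dbp value at ZT12 was 7.27 and the highest at ZT0 was 7.03, and for Usp2 these were 6.97 and 6.94. The difference between ZT12 and ZT0 was 0.20 for Hlf, 0.13 for Tef and −0.08 for Nfil3, with overlapping ranges. Without ZT0 replicate 4 these differences were 0.09 for Hlf, 0.16 for Tef and −0.16 for Nfil3, and they were 0.43 for Dbp and 0.20 for Usp2. The size of such a comparison depends on where its hours lie relative to the peak. Between the late dark (ZT16 and ZT20) and the late light (ZT4 and ZT8) the 5 genes differed by −0.07 to 0.05, and Dbp by 0.015 (limma adjusted p = 0.971). These hours lie symmetrically around a peak near ZT12, so a 24-h curve like that of Dbp gives almost no difference between them. Between dusk (ZT8 and ZT12) and dawn (ZT20 and ZT0) Dbp differed by 0.30 (limma adjusted p = 0.124).

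Successive time points showed where the levels moved. Dbp differed by 0.09 from ZT0 to ZT4, by 0.21 from ZT4 to ZT8 and by 0.15 from ZT8 to ZT12. It then differed by −0.16 from ZT12 to ZT16, by −0.15 from ZT16 to ZT20 and by −0.14 from ZT20 to ZT0, so that rise and decline were spread over the day. The step from ZT4 to ZT8 was the only step of any of the 5 genes with an unadjusted p under 0.05 (0.21 ± 0.08 SE, limma adjusted p = 1), as for 214 of 23410 probe sets (0.914%) that were higher at ZT8. For Hlf the upward step was mostly the same, 0.15 from ZT4 to ZT8, while Tef differed by 0.08 and 0.11 in the steps before and after ZT8. Nfil3 had its largest step from ZT16 to ZT20, 0.21 ± 0.11 (limma adjusted p = 0.9998). No probe set passed the adjusted threshold in any step (0 of 23410, 0%), while 350 to 2094 had an unadjusted p under 0.05 by limma. A test of any difference between the 6 time points called 1 of 23410 probe sets (0.00427%) and none of the 5 genes. The adjusted p by limma was 0.335 for Dbp, which passed unadjusted, and 0.988 or more for the others, which did not.

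Members of the set were also compared mouse by mouse, as a description over 24 arrays that share time of day. Dbp correlated with Hlf at r = 0.59, with Usp2 at 0.53 and with Tef at 0.44, and Nfil3 correlated with Usp2 at −0.46. After the time-point means were removed these were 0.20, −0.032, −0.10 and −0.32. Within a time point, the level of Dbp in a mouse thus had little relation to its Usp2 or Tef level. Tef and Hlf had r = 0.10 over all mice and −0.37 within time points, or −0.17 within time points without ZT0 replicate 4. For Hlf and Usp2, r was 0.42 over all mice and 0.034 within time points, or 0.46 within time points without that array.

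Other genes were ranked by their correlation with each of the 5 over the 24 arrays, among 9473 genes with a mean above the median. Dbp was closest to Klf9, a Krüppel-like factor gene induced by glucocorticoids (r = 0.84), to Brinp1 (0.77) and to Mis12, which encodes a kinetochore protein (0.76). Klf9 had a fitted peak-to-trough difference of 0.40 and a peak at ZT12.5. After the time-point means were removed, the r of Dbp with Klf9 was 0.52. Tef was closest to Auts2 (0.74), Cpm (0.70) and the amino acid transporter gene Slc36a1 (0.67). Usp2 was closest to Dmap1 (0.65), the inositol phosphate kinase gene Itpk1 (0.65) and Teddm1b (0.63), and Nfil3 to the phospholipase gene Plcb1 (0.71), Sdhaf2 (0.67) and the histone gene H2aw (0.65). Hlf was closest to the Mediator subunit gene Med7 (0.83), the translation initiation factor gene Eif4e (0.82) and Ibtk (0.79). For Hlf these values were 0.64, 0.62 and 0.55 without ZT0 replicate 4. For the other 4 genes the values without that array were between 0.63 and 0.83. After the time-point means were removed, the r with the closest gene was 0.86 for Hlf (Med7) and 0.76 for Nfil3 (Plcb1). It was 0.61 for Tef (Auts2) and 0.51 for Usp2 (Dmap1), so much of this likeness lay between mice of a time point. These values include ZT0 replicate 4, the array with the lowest Hlf value. The part of that array in the 0.86 of Hlf was not tested. The named genes are the highest of 9473, so high r values follow in part from the selection.

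The genes around the 5 in the pathway were taken as lists. Of the E-box loop that drives Dbp, 14 of 16 genes were measured, and 12 of the 14 were higher in the early dark, with a median difference of 0.13. In the limma rhythm test 1 of them was called, Nr1d1 (REV-ERB alpha, the repressor of Nfil3), with a fold of 1.44 and a peak at ZT9.22 ± 0.49 h (adjusted p = 0.00141), and 7 passed an unadjusted p under 0.05. Its fitted peak was earlier than that of Dbp at ZT12.2 ± 0.60 h, and this difference was not tested. For comparison, the median over the 5 genes was 0.15, with 4 of 5 higher, and over all probe sets it was 0.0055, with 52.5% higher.

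The targets described for the PAR bZIP factors and NFIL3 were mostly spread around no difference. Of 13 measured targets, of 15 listed, 7 were higher in the early dark, with a median difference of 0.018, and 0 were called for rhythm by limma at the adjusted threshold. At an unadjusted p under 0.05 there was 1, Il3 (an interleukin gene activated by NFIL3 in T cells), whose probe set had a mean of 5.70, below the median level (adjusted p = 0.413). The next smallest p was that of Alas1, which encodes the enzyme at the start of heme synthesis (adjusted p = 0.634). Many targets in the list were described in liver or immune cells. Of the measured targets, only Alas1 (mean 7.16) and Pdxk (7.68) had a mean above the median of all probe sets, 6.76. For the targets at lower levels the list cannot decide whether they follow the time of day in this tissue. Alas1 and Pdxk (limma adjusted p = 0.836 for Pdxk) did not pass an unadjusted p under 0.05 for rhythm. Of 9 genes whose proteins are described as substrates of USP2, 5 were higher in the early dark, with a median of 0.0023. Cry1 had a fold of 1.27 with a peak at ZT15.7 (limma adjusted p = 0.168), and Arntl, which encodes BMAL1, a fold of 1.11 with a peak at ZT1.67 (adjusted p = 0.567). By limma 0 of the 9 were called, and Cry1 was the only 1 to pass an unadjusted p under 0.05. These are mRNA levels, and the action of USP2 on proteins was not measured.

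C/EBP proteins are bZIP factors that can bind D-box-like elements. Of their 6 genes, 3 were higher in the early dark, with a median of −0.0056, 0 were called for rhythm by limma and 1 passed an unadjusted p under 0.05. The smallest p were those of Cebpa, with a peak at ZT23.3 (adjusted p = 0.528), and Ddit3 (adjusted p = 0.659). Another 54 genes were listed by symbols that begin with Usp and a digit, and whether each encodes a protease was not checked. Of these, 32 were higher in the early dark, with a median of 0.016. In the limma rhythm test 0 were called and 2 passed an unadjusted p under 0.05, Usp38 and Usp54 (adjusted p = 0.525 for each). The difference of Usp2, 0.15, was exceeded by 4 of the 54, Usp17ld (0.20), Usp53 (0.17), Usp37 (0.15) and Usp6nl (0.15). These are named after their values were seen and were not called (limma adjusted p from 0.480 to 0.551). Usp6nl and Usp2 were nearly equal, at 0.1451 and 0.1450.

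**Figure D5:**
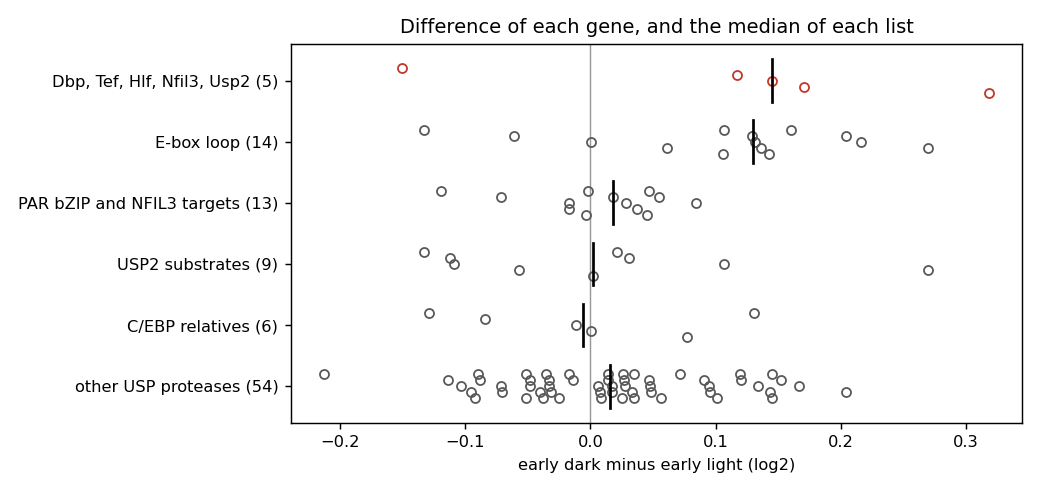
Difference between the early dark and the early light (log2) of each measured gene, by list, with the number of genes in brackets and a vertical bar at the median of each list. The medians are 0.15 for the 5 genes, 0.13 for the E-box loop, 0.018 for the PAR bZIP and NFIL3 targets, 0.0023 for the USP2 substrates, −0.0056 for the C/EBP relatives and 0.016 for the other USP proteases, a list drawn by symbol alone. Points are spread vertically to keep them apart.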

How the data were processed

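VTA punches of 24 mice, 4 at each of 6 time points, were hybridized to 1 GeneChip Mouse Gene array each. The authors deposited log2 values of 35556 probe sets, made with RMA (background correction, quantile normalization and median polish) in R 2.13.1 per the labels. Aligners and genome builds do not apply. Time points follow the labels, which give 4-h intervals, whereas the methods of the study give longer ones.

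Probe sets with an annotated gene (23410, of which 21789 have 1 gene and 1621 several) were tested, and 12146 have none. Symbols were updated through the GRCm38.p6 gene table for 21698 of them. In R 4.3.3 with limma 3.58.1, the log2 values were fitted on the cosine and sine of ZT (period 24 h, moderated F-test) and, separately, on the 6 time points as groups with the contrasts given. The study used CircWave, which was not used here, at an unadjusted p under 0.05. Here p-values are two-sided for contrasts and Benjamini-Hochberg adjusted over all 23410 probe sets, with calls at an adjusted p under 0.05. Errors of peak times are by the delta method. Plots were drawn with matplotlib 3.10.9. The fits were tested on simulated data. The number of arrays limits the precision. Each array is a separate mouse.

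The 5 genes, the lists and the tests were chosen with earlier results of these data known. Named were the 5 genes, the 3 genes most correlated with each, and of each list the called genes or else the 2 with the smallest p. Markers were averaged per array: dopamine neurons, GABA and glutamate neurons, oligodendrocytes, astrocytes, microglia, endothelial cells, blood and neighbouring nuclei. Alternatives were other normalizations, filters, weights and variance models, a 12-h harmonic, time as a factor, linear values, the replicate number as a block, other hours, and fits that lacked a single array or a whole time point. No column was left without a sample.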

Additional observations from a re-analysis of the deposited data

How the results depend on the processing

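The size and direction of the Dbp rhythm changed little, and its call depended on the model. The call was lost with 24-h and 12-h harmonics tested together (difference 0.42, limma adjusted p = 0.128), with time point as a factor (0.44, 0.335), and without all mice of ZT0 (0.41, 0.184), ZT4 (0.41, 0.0698), ZT8 (0.42, 0.128) or ZT12 (0.38, 0.498), so that 0 genes were then called. The number of genes at an unadjusted p under 0.05 fell from 3 to 1 with the harmonics and with the factor, and to 2 without all mice of ZT12. When single arrays were left out, the Dbp difference ranged from 0.38 to 0.44, the genes called from 0 to 1 and those at an unadjusted p from 3 to 4. Peaks stayed between ZT11.9 and ZT12.4 for Dbp. For the early dark against the early light, the Dbp difference was 0.32 but not called with all probe sets (adjusted p = 0.0630) or an unmoderated test (0.0704). Other hours gave 0.30 for dusk against dawn and 0.015 for the late dark against the late light. In each of these 0 genes were called. The late hours lie symmetrically around a peak near ZT12, so their small difference follows from the phase and does not bear on the strength of the rhythm. The Dbp difference between the early dark and the early light ranged from 0.29 to 0.34 without single arrays, with 0 to 1 genes called. No result reversed. Hlf and Usp2 kept an unadjusted p under 0.05 for rhythm without any single array (24 of 24), Tef passed it in 7 of 24 and Nfil3 in 0 of 24. Usp2 did not pass it without all mice of ZT0 or of ZT12, while Hlf passed it without any whole time point.

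The 7 rhythmic probe sets of the whole table became 19 after a further quantile normalization, 4 with all probe sets, 3 with the harmonics, 1 with the factor, 0 to 9 without a time point and 4 to 12 without single arrays. Replicate numbers did not pair the mice: same-numbered arrays had a median r of 0.026 (−0.30 to 0.58) and 6 of 24 arrays were closest to their own number. With the replicate number as a block the Dbp difference stayed 0.41 (adjusted p = 0.0204), 1 gene was called, and no call of the 5 genes changed. A mean over the probe sets of a gene was not formed because each gene had 1. The interval of most peak times was hours wide. The differences of Hlf, Tef, Usp2 and Nfil3 did not pass the threshold after adjustment over all 23410 probe sets.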
